A study of Mus musculus with 4 samples.

Results

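The genes examined here encode the aminoacyl-tRNA synthetases, the enzymes that attach each amino acid to its transfer RNA. They were taken as all genes whose symbol has the form of a 1-letter amino acid code followed by "ars" (with or without 1, 2, a or b at the end), together with Eprs. Of 18193 genes with a probe set of a single gene symbol, 35 were members, 19 of cytosolic enzymes and 16 of mitochondrial enzymes, whose symbols end in 2. The array experiment used cell lines 8534 and 8542, derived from mammary tumors of female MMTV-tTA/TOP-ICN1 mice of the strain FVB/N;B6. In both lines a tetracycline transactivator under the MMTV promoter drives human ICN1, the active intracellular domain of NOTCH1. Doxycycline-treated cells (2 µg/ml, 24 hours, ICN1 Off) were compared with untreated cells of the same line (ICN1 On), on 4 Affymetrix arrays, 1 per line and condition. All cells carried both transgenes and grew in the same serum-containing medium, and no line without the transgenes was compared, so that loss of ICN1 and exposure to doxycycline cannot be told apart. Each line stands for 1 tumor, which makes n = 2 lines for every value.

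Cells hold separate sets of these enzymes for protein synthesis in the cytosol and in mitochondria, both encoded in the nucleus. Kars and Gars each make a cytosolic and a mitochondrial form from 1 gene, and are counted here with the cytosolic enzymes by their symbols. Several cytosolic enzymes are joined with 3 scaffold proteins in the multisynthetase complex. Many cytosolic synthetase genes are known targets of ATF4, the transcription factor of the amino acid response, which acts through elements with the core TGATGNAA, and MYC, which binds the E-box CACGTG, is known to drive genes of protein synthesis.

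Few synthetase genes passed the test after 24 hours of doxycycline. Of the members, Sars2 and Vars, the genes of the mitochondrial seryl- and the cytosolic valyl-tRNA synthetase, fell, and none rose. Aars2, of the mitochondrial alanyl-tRNA synthetase, was more than 2-fold lower in both lines but did not pass the test. In a limma fit with the cell line as a block, 2 of 35 members fell (5.71%) and 0 rose at an adjusted p under 0.05. Over all 15070 genes tested, 6.95% fell and 4.76% rose, so that the share of synthetases that fell lay near that of all genes. At an unadjusted p under 0.05, 8 members were lower (22.9%) and 0 were higher, against 14.1% and 12.4% of all genes. By the rule of the study's methods, more than 2-fold in both lines, 1 member was lower and 0 were higher, against 4.18% and 2.33% of all genes. At more than 1.5-fold in both lines, Aars2 and Sars2 were lower and 0 members were higher, against 8.24% and 6.42% of all genes.

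As a check of the labels, Hey1, Dtx1 and Myc, genes that NOTCH1 is known to activate, fell in both lines, with log2 fold changes of -3.56 and -2.92 for Hey1, -1.62 and -1.90 for Dtx1 and -1.08 and -1.46 for Myc in lines 8534 and 8542 (limma adjusted p = 0.000283, 0.00143 and 0.00465). Hes1 was lower by 0.80 and 0.40 on the log2 scale and was not called (adjusted p = 0.0579 in limma). The signal of Notch1, measured on a probe set of the mouse gene, fell by 0.96 and 0.50 on the log2 scale (limma adjusted p = 0.0204). The 2% trimmed mean of the arrays lay between 97.7 and 102 units, and the log2 difference between 3' and 5' probe sets of β-actin between 0.25 and 0.30. Of 7 luminal epithelial markers all were tested, and their summed signal was 25735 and 19711 units with doxycycline and 21178 and 18430 units without it. Of these, Krt8, Krt18 and Cldn3 rose and Krt19 fell (42.9% and 14.3%, against 4.76% and 6.95% of all genes). The 6 basal markers summed to 9609 and 317 units with doxycycline and 6074 and 243 units in untreated cells, the 6 leukocyte markers to 572 and 524 units against 347 and 340 units, the 6 fibroblast markers to 1091 and 148 units against 842 and 149 units, and the 5 endothelial markers to 134 and 158 units against 270 and 148 units. All basal and fibroblast markers were tested and 0 were called, and 1 basal marker held 6588 of the 9609 units in treated 8534 cells. Of the 6 leukocyte markers 4 were tested and Cd14 rose, while Ptprc was among those under the expression filter. Of the 5 endothelial markers 4 were tested and Tek fell. The part of these markers in the synthetase values was not tested.

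**Figure D1:**
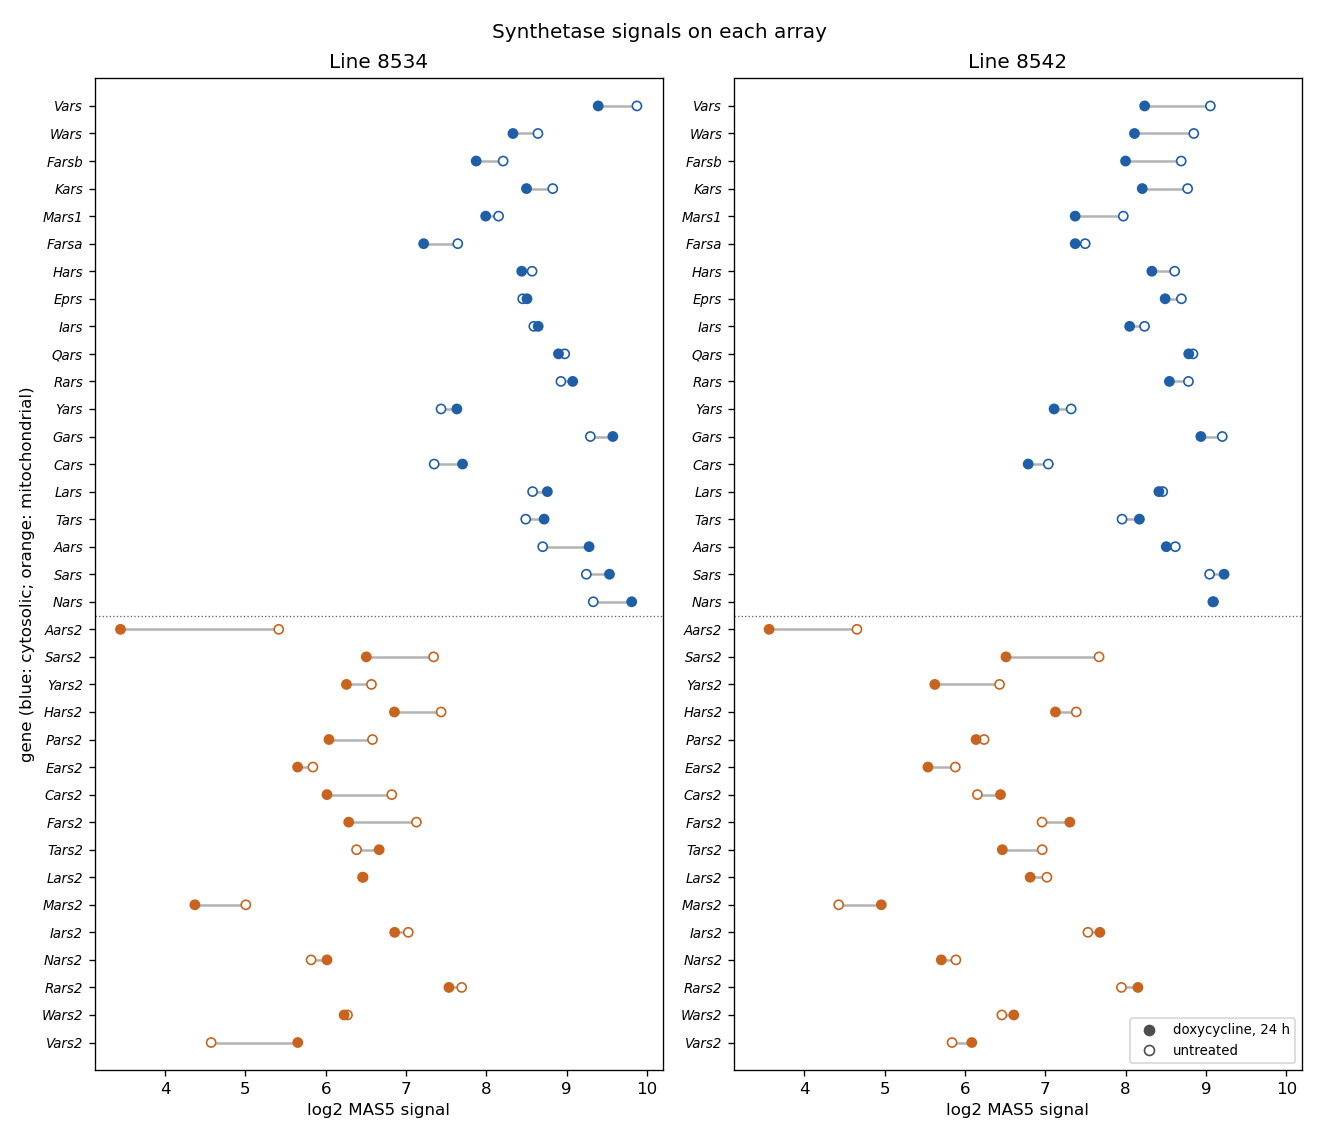
Log2 MAS5 signal (x axis) of the 35 synthetase genes (y axis) on the arrays of line 8534 (left panel) and line 8542 (right panel). Filled points are doxycycline-treated cells, open points untreated cells, blue marks cytosolic and orange mitochondrial enzymes, ordered within each by mean change. Vars lies to the left of its untreated value in both panels, as do Aars2 and Sars2. Signals are compared within a gene only.

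Sars2 (probe set 1448522_at) loads serine onto the transfer RNAs of mitochondria, and variants of the human gene are known from inherited mitochondrial disease. Its signal was 90.8 units in doxycycline-treated and 162 units in untreated 8534 cells, and 91.2 units in doxycycline-treated and 203 units in untreated 8542 cells. Both treated values lay below both untreated values. Sars2 thus fell 1.79-fold and 2.23-fold, a change of -0.999 ± 0.23 on the log2 scale (mean and SD of 2 lines, adjusted p = 0.0167 in limma).

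Vars (1448472_at) encodes the only cytosolic valyl-tRNA synthetase, an enzyme that binds the elongation factor 1 complex. It was at 672 units in doxycycline-treated and 938 units in untreated 8534 cells, and at 302 units in doxycycline-treated and 532 units in untreated 8542 cells. The treated value of line 8534 was above the untreated value of line 8542, so that the conditions overlap across the lines and separate only within them. Vars fell 1.40-fold and 1.76-fold, a change of -0.65 ± 0.24 on the log2 scale (mean and SD of 2 lines, adjusted p = 0.0291 in limma). Neither Sars2 nor Vars passed without the block (limma adjusted p = 0.167 and 0.645) or without the intensity trend of the variance model (limma adjusted p = 0.256 and 0.325), and Vars also missed the threshold with no expression filter (limma adjusted p = 0.051).

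Aars2 (1436017_at), whose enzyme loads alanine in mitochondria, had 10.9 units in doxycycline-treated and 42.7 units in untreated 8534 cells, and 11.8 units in doxycycline-treated and 25.2 units in untreated 8542 cells. Both treated signals were below both untreated ones, and only the untreated 8534 signal lay above the median probe set of its array (29.2 to 30.6 units over the arrays). The signal was 3.92-fold and 2.13-fold lower, a change of -1.53 ± 0.62 on the log2 scale (mean and SD of 2 lines, adjusted p = 0.0894 in limma). With a pseudocount of 5.52 units, the 20th percentile of all values, Aars2 was no longer past the 2-fold rule. The gene had 1 probe set.

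The other members with large mean changes to the lower side were Yars2, Wars and Farsb. Yars2 (1439442_x_at), the mitochondrial tyrosyl enzyme, had 76.5 and 49.3 units with doxycycline in lines 8534 and 8542, against 94.9 and 86.2 units in untreated cells, a change of -0.56 ± 0.35 on the log2 scale (mean and SD of 2 lines, adjusted p = 0.201 in limma). Wars (1434813_x_at), the cytosolic tryptophanyl enzyme and a known interferon-induced gene, had 322 and 276 units with doxycycline, against 400 and 461 units in untreated cells. The change averaged -0.52 ± 0.30 on the log2 scale (SD of 2 lines, adjusted p = 0.0893 in limma). Farsb (1435103_x_at), the beta subunit of the cytosolic phenylalanyl enzyme, had 234 and 256 units with doxycycline, against 296 and 413 units without it, a change of -0.51 ± 0.25 on the log2 scale (mean and SD of 2 lines, adjusted p = 0.0927 in limma). In all of these both treated signals lay below both untreated signals. On these probe sets the difference was larger in line 8542 than in line 8534 in each. In lines 8534 and 8542, Farsb changed by -1.29 and -0.35 on 1423709_s_at and by -0.97 and -0.30 on 1423708_a_at. Yars2 changed by -0.51 and -0.45 on 1430134_a_at, so that these probe sets fell more in line 8534. The remaining probe set of Farsb (1430986_at, -0.89 and -1.23) and those of Wars had the lower change in line 8542.

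On the higher side no member passed the test. Vars2 (1454936_at), the mitochondrial valyl enzyme, had 50.3 and 67.9 units with doxycycline in lines 8534 and 8542, against 23.8 and 57.3 units in untreated cells, so that treated 8534 cells lay below untreated 8542 cells. The change averaged 0.66 ± 0.59 on the log2 scale (SD of 2 lines, adjusted p = 0.246 in limma), and its other probe set differed in direction, as given with the probe sets. Nars (1452866_at), the cytosolic asparaginyl enzyme, had 897 and 543 units with doxycycline, against 644 and 546 units without it, so that the difference lay in line 8534 alone. Sars (1426257_a_at), the cytosolic seryl enzyme, had 740 and 599 units with doxycycline, against 606 and 528 units without it. Tars (1460323_at), the cytosolic threonyl enzyme, had 421 and 288 units with doxycycline, against 360 and 248 units without it. Sars and Tars were the cytosolic members higher in both lines. The second probe set of Sars (1452000_s_at) was higher in line 8534 alone, with changes of 0.40 and -0.02. Aars (1451083_s_at), the cytosolic alanyl enzyme, had 621 and 363 units with doxycycline, against 416 and 393 units without it. Lars (1448403_at), the cytosolic leucyl enzyme, had 433 and 341 units with doxycycline, against 381 and 352 units in untreated cells. Aars and Lars, like Nars, were higher in line 8534 and lower in line 8542. The mean log2 fold changes of Nars, Sars, Aars, Tars and Lars were 0.24, 0.23, 0.23, 0.22 and 0.07, with limma adjusted p values of 0.419, 0.319, 0.523, 0.401 and 0.836. The other 23 members had mean log2 fold changes between -0.45 (Kars) and 0.05 (Wars2), and the standard errors of all members ran from 0.12 (Sars) to 0.45 (Aars2), so that a change of the size seen in Vars could not be detected in every member.

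**Figure D2:**
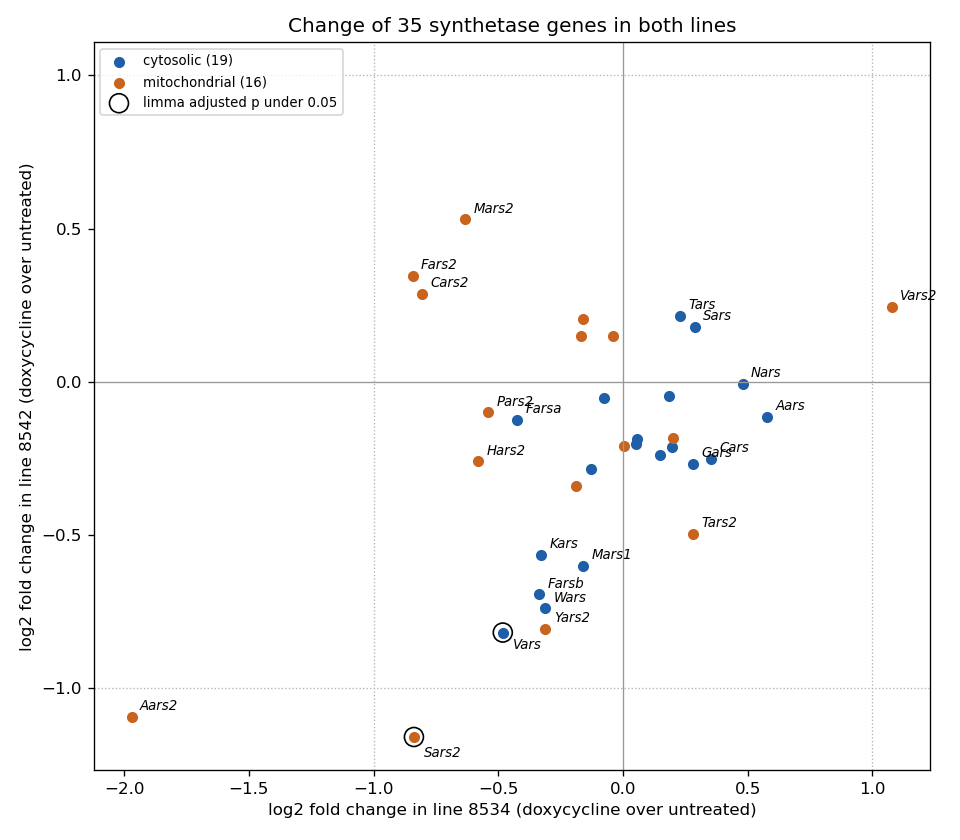
Log2 fold change, doxycycline over untreated, of each synthetase gene in line 8534 (x axis) and line 8542 (y axis). Each point is 1 gene, blue cytosolic and orange mitochondrial, black rings mark the genes past limma (Sars2 and Vars) and dotted lines a 2-fold change. Of 19 blue points, 17 lie below 0 on the y axis, and Aars2 is the point at -1.97 and -1.09.

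The cytosolic enzymes were lower with doxycycline mostly in line 8542. In line 8534, 11 of 19 were higher with doxycycline, against 50.9% of all genes, with a median log2 fold change of 0.05. In line 8542, 2 were higher and 17 lower, against 7534 of 15070 genes lower, with a median of -0.21. The medians over all genes were 0.01 and 0.00. The sign of the cytosolic median in line 8534 turned with the choice of probe set, to -0.04 where the probe sets of each gene were averaged and to -0.07 over probe sets without s, x or a endings, and that in line 8542 stayed below 0 under every alternative tried. Of the 19 genes, 9 were higher in line 8534 and lower in line 8542, against 16.6% of all genes, and 0 were the reverse. The change in line 8542 lay below that in line 8534 for 17 of 19 genes, against 49.8% of all genes. Whether the lines differ in this could not be tested, since each line had 1 array per condition.

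The 16 mitochondrial enzymes had medians of -0.25 (line 8534) and -0.14 (line 8542) on the log2 scale, with 12 lower in line 8534 and 9 in line 8542, and these medians stayed below 0 under every alternative tried. Of the 16, 6 were lower in both lines (Aars2, Sars2, Yars2, Hars2, Pars2 and Ears2), or 37.5% against 33.3% of all genes. Vars2 alone was higher in both, or 6.25% against 34.2%. Other tested probe sets differed, since Vars2 was lower in both lines on 1434349_at (-1.08 and -0.80). On 1424774_s_at, Ears2 changed by -1.13 in line 8534 and 0.27 in line 8542. No test was made between the compartments. Among all 35 members 14 were lower in both lines and 3 higher in both, against 33.3% and 34.2% of all genes.

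The 7 measured enzymes of the multisynthetase complex (Eprs, Iars, Lars, Mars1, Qars, Rars and Kars) had medians of 0.05 and -0.20 on the log2 scale in lines 8534 and 8542, and 0 passed the test (at an unadjusted p under 0.05, 1 was lower and 0 were higher in limma). At that unadjusted threshold, 14.1% of all genes were lower and 12.4% higher. All 7 complex enzymes were lower in line 8542, against 7534 of 15070 genes. The 12 cytosolic enzymes outside the complex had medians of 0.21 and -0.23, and 10 of them were also lower in line 8542. The scaffold gene Aimp1 changed by -0.02 and -0.06 and Aimp2 by 0.18 and 0.22 (limma adjusted p = 0.894 and 0.392). Eef1e1, the gene of the small scaffold protein AIMP3, had 358 and 258 units with doxycycline, against 464 and 434 units without it, a change of -0.56 ± 0.27 on the log2 scale (mean and SD of 2 lines, adjusted p = 0.0641 in limma). Synthetases fall in the structural classes I and II, which differ in the fold of the catalytic domain. Cytosolic class I enzymes (9 genes) had medians of 0.05 and -0.24, and cytosolic class II enzymes (9 genes) of 0.23 and -0.12, with Eprs, which holds an enzyme of each class, left out.

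Mitochondrial and cytosolic enzymes of the same amino acid were set side by side by their changes, in 17 pairs that count Fars2 and Eprs more than once. The change of the mitochondrial gene lay below that of its cytosolic partner in both lines in 6 pairs, above it in both in 2 and differed by line in 9. It was below in 14 pairs in line 8534 and in 7 pairs in line 8542. For serine, Sars2 changed by -0.84 and -1.16 and Sars by 0.29 and 0.18 in lines 8534 and 8542. For alanine, Aars2 changed by -1.97 and -1.09 and Aars by 0.58 and -0.11. Valine ran the other way, with changes of 1.08 and 0.25 for Vars2 and of -0.48 and -0.82 for Vars. This holds for the chosen probe set of Vars2 only. On its other probe set (1434349_at) Vars2 changed by -1.08 and -0.80, below Vars in line 8534 and near it in line 8542. For tryptophan the mitochondrial gene was also above its partner on the chosen probe sets, with Wars2 at -0.04 and 0.15 and Wars at -0.31 and -0.74. On 1437832_x_at, Wars changed by 0.46 and -0.50, above Wars2 in line 8534. No test was made of these differences.

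**Figure D3:**
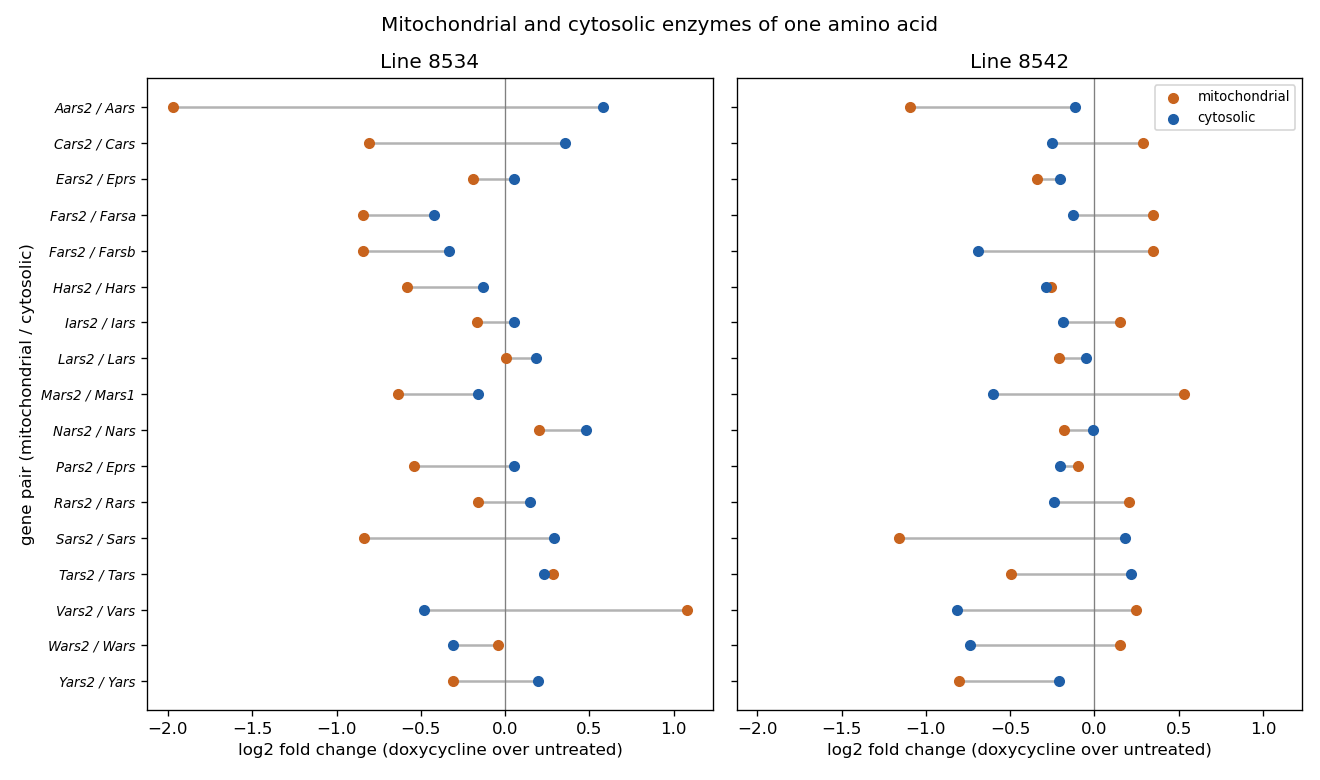
Log2 fold change, doxycycline over untreated (x axis), of the mitochondrial (orange) and cytosolic (blue) gene of each amino acid (y axis, 17 pairs) in line 8534 (left) and line 8542 (right). The orange point lies left of the blue point in 14 pairs in line 8534 and in 7 pairs in line 8542.

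A gene can have several probe sets, and these were compared where they existed. The 35 genes had 72 probe sets, 67 of which were tested. Of these, 2 fell and 0 rose, against 5.54% and 3.69% of all probe sets. Over all probe sets, those under the filter included, the mean changes had 1 direction in 12 of 23 genes with several, and both directions in 11. Over tested probe sets alone they had both directions in 8 of 20 genes. Vars2 was among the 8, since its second probe set (1434349_at) had 24.6 and 36.9 units with doxycycline, against 52.1 and 64.4 units in untreated cells (log2 fold changes of -1.08 and -0.80, limma adjusted p = 0.0821). All 4 probe sets of Farsb were lower in both lines, and over their mean Farsb passed (-0.76 on the log2 scale, limma adjusted p = 0.0419). Both probe sets of Yars2 were lower in both lines. Of the 4 probe sets of Wars, 1437832_x_at was higher in line 8534 (0.46) and lower in line 8542 (-0.50). The second probe set of Aars (1423685_at) changed by 0.28 and -0.34, with the same directions as the first. An untested probe set of Ears2 (1451472_at) was more than 2-fold higher in both lines, at 8.01 and 14.7 units with doxycycline, against 2.89 and 3.99 units in untreated cells, where 20% of all values lay under 5.52 units.

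The untreated lines also differed from each other. For 21 of 35 members (60.0%) the log2 difference between the untreated lines, 8542 minus 8534, was larger in size than the mean change with doxycycline, against 51.4% of all genes. These differences ran from -0.82 (Vars) to 1.27 (Vars2). Of the 19 cytosolic genes, 15 were lower in untreated 8542 than in untreated 8534 cells, with a median difference of -0.14, against 7279 of 15070 genes and a median of 0.02. Of the mitochondrial genes, 7 of 16 were lower, with a median difference of 0.05.

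Promoter sequences from RefSeq (GRCm38.p6, 250 bases upstream and 50 downstream of the start site) matched 26 members with 27 promoters, 12 of cytosolic and 15 of mitochondrial enzymes. They were searched on both strands for TGATGNAA, CACGTG and TGGGAA, the last a core bound by the NOTCH partner CSL. TGATGNAA was found in 5 of 12 cytosolic promoters (Aars, Gars, Iars, Tars and Yars) and in 0 of 15 mitochondrial promoters, against 3.97% of all 32851 promoters. CACGTG was found in 4 cytosolic promoters (Aars, Farsb, Iars and Tars) and 1 mitochondrial promoter (Ears2), against 7.15% of all, and TGGGAA in 2 and 1, against 25.6% of all. A match is a description of letters only. The stretches that hold the amino acid response core are shown for Gars, Iars, Tars and Yars, as members that have it. Each runs 5′ to 3′ on the strand of the gene with 14 bases on either side, and capitals mark the match, which reads TGATGNAA on the gene's own strand in Yars and on the opposite strand in the others.
Gars, chr6:55037957-55037992 (+): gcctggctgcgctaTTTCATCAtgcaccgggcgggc
Iars, chr13:49682123-49682158 (+): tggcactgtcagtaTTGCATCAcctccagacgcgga
Tars, chr15:11399652-11399687 (-): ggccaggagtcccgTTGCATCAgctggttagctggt
Yars, chr4:129189892-129189927 (+): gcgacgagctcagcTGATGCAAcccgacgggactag

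The match began 30 and 15 bases upstream of the start site in Gars and Tars, and 8 and 4 bases downstream of it in Iars and Yars. All 5 genes with the core were higher with doxycycline in line 8534, with a median log2 fold change of 0.23, although the second probe set of Iars (1452154_at) was lower there (-0.13), and in line 8542 all but Tars were lower, with a median of -0.19. The 7 other cytosolic genes with a promoter had medians of -0.16 and -0.20, with 5 of 7 lower in line 8534. None of these 12 genes passed the test in limma, and at an unadjusted p under 0.05 the counts were 0 of the 5 and 2 of the 7, both lower. Vars, the cytosolic gene that passed, had no promoter here and could not be among the 12. The same holds for Wars, Cars, Rars, Hars, Lars and Nars. The 12 genes were also split by CACGTG, which Aars, Iars and Tars held beside the amino acid response core. The 4 genes with CACGTG had medians of 0.14 and -0.15 in lines 8534 and 8542, with 3 higher in line 8534. The 8 without it had medians of -0.01 and -0.21, with 4 higher in line 8534. The part of either motif in these changes was not tested.

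The 250 bases upstream of Sars2 are shown as those of a member that fell. They held none of the 3 motifs on either strand and are therefore all in lower case.
Sars2, chr7:28741718-28741967 (+): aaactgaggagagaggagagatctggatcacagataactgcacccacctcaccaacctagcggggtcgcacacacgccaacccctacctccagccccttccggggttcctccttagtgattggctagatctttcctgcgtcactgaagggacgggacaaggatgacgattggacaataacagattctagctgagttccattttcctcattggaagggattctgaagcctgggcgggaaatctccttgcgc

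Other genes of transfer RNA biology were read from lists around the synthetases. Among 15 tested genes of aminoacylation outside the family, 1 fell and 1 rose (6.67% each), against 6.95% and 4.76% of all genes. Aarsd1, an editing protein that clears mischarged transfer RNAs for alanine, changed by -0.64 and -0.73 on the log2 scale (limma adjusted p = 0.0421). Dtd1, which removes D-amino acids from transfer RNA, had 683 and 371 units with doxycycline, against 212 and 178 units in untreated cells, and rose 3.22-fold and 2.08-fold (limma adjusted p = 0.00473). Of 30 tested genes of tRNA maturation and export, 6 fell and 0 rose, with medians of -0.21 and -0.43. The largest falls were those of the splicing endonuclease subunits Tsen34 (mean change of -0.98, limma adjusted p = 0.0104) and Tsen15 (-0.95, limma adjusted p = 0.0126), the pseudouridine synthase Pus7 (-0.98, limma adjusted p = 0.00941) and the methyltransferase Mettl1 (-0.84, limma adjusted p = 0.0435). Of 21 genes of the RNA polymerase III machinery, which transcribes tRNA genes, and of 9 mitochondrial translation factors, 0 passed in either direction in limma. At an unadjusted limma p under 0.05, 4 were lower (19.0%) and 1 higher of the first. Of the other, 1 was lower (11.1%) and 0 were higher. Over all genes 14.1% were lower and 12.4% higher at that threshold. Of 9 cytosolic elongation factors, Eef1d, a subunit of the elongation factor 1 complex, fell (-0.66 and -0.60, limma adjusted p = 0.0207) and Eef2k, the kinase of elongation factor 2, rose (1.06 and 1.36, limma adjusted p = 0.0264).

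ATF4 and its targets were read beside the synthetases. Atf4 had 1233 and 855 units with doxycycline, against 1207 and 1015 units without it, log2 fold changes of 0.03 and -0.25 (limma adjusted p = 0.679). Of 24 genes tested, 3 fell and 3 rose (12.5% each), against 6.95% and 4.76% of all genes. Their medians were 0.44 in line 8534 and -0.05 in line 8542. The genes with the largest changes among those called were the stress-induced regulator Nupr1 (2.06 and 2.69), the serine synthesis enzyme Psat1 (-1.14 and -2.66), the transcription factor Atf3 (0.89 and 0.89) and the mitochondrial serine hydroxymethyltransferase Shmt2 (-0.53 and -0.91), with limma adjusted p values of 0.000494, 0.0129, 0.0321 and 0.0287.

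**Figure D4:**
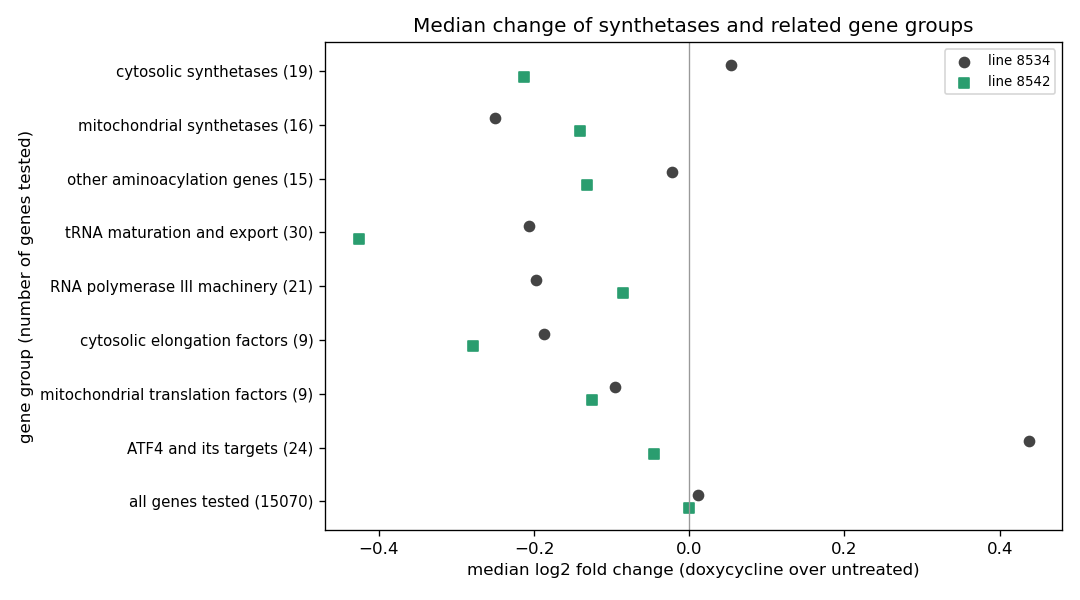
Median log2 fold change, doxycycline over untreated (x axis), of synthetases, related gene lists and all genes tested (y axis, number of genes tested in parentheses), with circles for line 8534 and squares for line 8542. Cytosolic synthetases lie at 0.05 and -0.21, where the first turns to -0.04 over the mean of all probe sets, and mitochondrial synthetases at -0.25 and -0.14.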

How the data were processed

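Total RNA of 2 mouse mammary tumor cell lines was measured on 4 arrays. Signals of 45101 probe sets, computed by the authors with MAS5, were deposited on the log2 scale. For MAS5, neither version nor scaling target is given in the sources used here. The paper gives the A version as the array used, which conflicts with this number of probe sets, that of the full array, whose annotation was used here. No detection calls were used. The number of arrays limits the precision. After 64 control probe sets were left out, the platform annotation paired 34945 probe sets with 1 symbol and 932 with several, and left 9160 unnamed. Single-symbol probe sets alone were named, and all 35 synthetase symbols stood in the reference gene table. The probe set with the highest average over the arrays stood for a gene. Units are 2 to the power of a log2 value. Changes were doxycycline minus untreated within each line.

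Limma 3.58.1 (R 4.3.3) was fitted with terms for line and treatment to the 33778 probe sets whose mean log2 value reached the 25th percentile (2.94). The variance was moderated by eBayes with an intensity trend, and p values were adjusted by Benjamini-Hochberg over these probe sets. All 35 members passed this filter. The fit had 1 residual and 6.18 prior degrees of freedom and was tested on simulated data. Both arrays of a pair come from 1 cell line, and arrays of a line deviated together (r = 0.36 across probe sets). The p values rest in part on the spread of a gene between these lines, which holds array noise. By the degrees of freedom they rest more on the variance trend over all tested probe sets. Tars, for example, had an SD of 0.009 between lines and a limma standard error of 0.136. The smallest p of an exact test over 2 lines is 0.5. Members with a limma call, a change over 2-fold in both lines or one of the 6 largest mean changes in each direction were described in full, with up to 4 called genes of each other list. The sequence of 1 promoter is not reported here. The members and lists were chosen with earlier results of these data known. Alternatives were other filters, variance models, scalings, a floor, a pseudocount, other choices of probe set, no block and leaving out each line.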

Additional observations from a re-analysis of the deposited data

Results flagged for a closer look

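In 5 of 35 synthetase genes the lines moved in opposite directions, by more than 1.2-fold in each. The share of all genes past this minimum was not computed. With no minimum, 12 members were higher in line 8534 and lower in line 8542 (34.3%), against 16.6% of all genes. The reverse held for 6 (17.1%), against 15.8% of all genes. The change in line 8542 minus that in line 8534 was 1.09 on the log2 scale for Cars2 (0.29 in line 8542 and -0.81 in line 8534), 1.19 for Fars2 (0.35 and -0.84), 1.16 for Mars2 (0.53 and -0.63), -0.55 for Gars (-0.27 and 0.28) and -0.78 for Tars2 (-0.50 and 0.28). Each value rests on 1 array per line and condition, and the difference between the lines was not tested. Other tested probe sets did not all show it, since 1439406_x_at of Fars2 (-0.18 in line 8542 and -0.72 in line 8534), 1436856_x_at of Tars2 (-0.68 and -0.37) and 1454186_a_at of Cars2 (-0.24 and -0.07) were lower in both lines. Mars2 had low signals, 20.7 and 31.1 units with doxycycline in lines 8534 and 8542, against 32.1 and 21.5 units without it.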

How the results depend on the processing

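Of 418 values of single genes under the alternatives that keep both lines, 400 kept their direction and side of the threshold, 5 lost the call, 2 gained it and 11 changed sign. The 2 synthetases called lower became 1 with no filter and 0 without the intensity trend or without the block, the pairing by line. Of the cytosolic enzymes 0 were then called in each of these, and 2 over the mean of all probe sets (Vars and Farsb) or with 1 probe set per gene in the fit (Vars and Wars). Of the mitochondrial enzymes 0 were called without the trend or the block. The limma adjusted p ran from 0.00506 to 0.256 for Sars2 and from 0.0114 to 0.645 for Vars over 12 alternatives. Over all genes 1047 were lower and 717 higher, against 0 and 0 without the trend, 55 and 3 without the block, and 758 and 435 over the mean of all probe sets. By the 2-fold rule 1 member was lower, against 2 at 1.5-fold, 0 with the pseudocount, and 1 to 2 lower and 0 to 1 higher when a line was left out, which leaves no test. The change in the remaining line had the opposite sign to the mean in 10 of 35 members without line 8534 and in 8 without line 8542. The mitochondrial median of mean changes (-0.18) was -0.26 over the mean of all probe sets. With both lines kept, changes of sign, none in a called gene, were with quantile normalization Iars2 (0.034) and Yars (0.050), over the mean of all probe sets Cars (-0.17), Ears2 (0.70), Iars2 (0.22), Lars2 (0.46), Nars2 (-0.016), Vars2 (-0.14) and Wars2 (-0.0016), and over probe sets without s, x or a endings Aars (-0.032) and Farsa (0.32). The cause was not tested.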
